A study of Mus with 18 samples.

Results

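The 10 genes followed here belong to the muscle atrophy programme and were chosen by name from the 21401 gene symbols of the deposited tables. They are the ubiquitin ligase genes Fbxo32, Trim63 and Fbxo30, the forkhead transcription factor genes Foxo1, Foxo3 and Foxo4, the regulators Klf15, Mstn and Ddit4, and 8430408G22Rik, a FoxO-responsive gene that was added because of its large increase in muscle labelled LPS-MIC-1. All 10 were found in both tables, and the set was chosen with earlier results of these data known. The values that brought 8430408G22Rik in are therefore given as a description in muscle, with no test, and the counts of called genes in muscle cover the other 9.

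The study examined how moringa isothiocyanate-1 (MIC-1), an isothiocyanate from the moringa plant, acts on inflammation of muscle set off by lipopolysaccharide (LPS), a bacterial cell wall component. RNA was sequenced in 18 libraries, 3 in each of 6 groups. The gastrocnemius (calf muscle) came from wild type male C57BL/6 mice of unstated age. Control mice received vehicle, LPS mice were injected intraperitoneally with 10 mg/kg, and LPS-MIC-1 mice had 80 mg/kg of MIC-1 by gavage daily for 3 days before the same injection, with muscle taken 16 h after LPS. The cultured libraries are labelled wild type C2C12, a mouse myoblast line, as control, LPS (1 μg/mL) and LPS-MIC-1. The labels give LPS-MIC-1 cells 10 μM of MIC-1 and a duration of 24 h, whereas the study's text on the sequenced cells names a MIC-1 concentration 10-fold lower. The group names used below for the cultured libraries are these labels. Neither experiment had MIC-1 without LPS, so LPS-MIC-1 is set against LPS and against control, and these comparisons share libraries.

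Muscle mass is held by a balance between protein synthesis and breakdown. In many forms of wasting, FoxO transcription factors enter the nucleus when signalling through Akt is low and switch on ubiquitin ligases, which tag muscle proteins for the proteasome. Glucocorticoids act on the same programme, in part through Klf15 and Ddit4, and myostatin, a secreted inhibitor of muscle growth, acts through Smad proteins.

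Expression was deposited as FPKM, in which fragment counts are scaled to transcript length and library size. Levels of different genes can thus be set side by side, and reads per library are not given. Marker genes were compared with the labels first. In muscle, all 12 fibre genes were expressed in every group, with a summed FPKM between 183293 and 247565 over the 9 libraries. The cultured libraries labelled control and LPS went against their label. Their 13 macrophage genes summed to between 11186 and 11243 FPKM in control and between 8086 and 8325 in LPS, and their 11 myogenic genes to at most 1.04 and 4.65. Pax7 and Myf5, which mark muscle precursors, were listed at 0 in all 6 of these libraries. Those labelled LPS-MIC-1 had a myogenic sum between 990 and 1239 FPKM and a macrophage sum of 294 in replicate 1, 80.1 in replicate 2 and 90.9 in replicate 3. Every cultured comparison that involves LPS-MIC-1 is thus also one between libraries of different marker profile, which cannot be told apart from the treatment. In muscle, LPS-MIC-1 replicate 3 stood apart in its macrophage sum, at 218 FPKM against 51.9 and 50.2 in replicates 1 and 2.

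**Figure D1:**
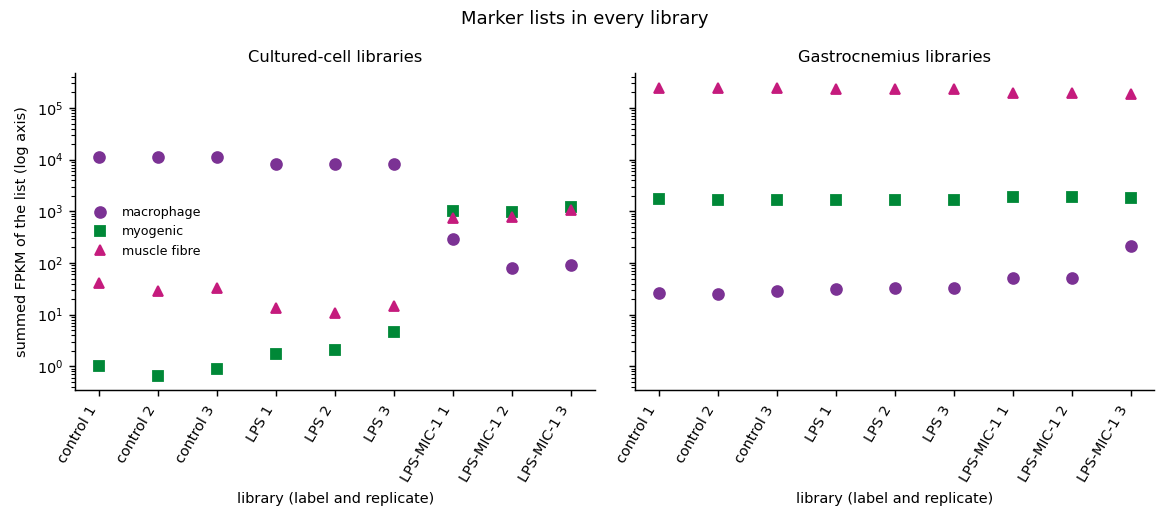
Summed FPKM (log axis) of the macrophage, myogenic and muscle fibre marker lists in each library, with 1 point per list and library. The cultured libraries labelled control and LPS have macrophage sums of 8086 FPKM or more and myogenic sums of 4.65 or less, those labelled LPS-MIC-1 have myogenic sums of 990 or more, and all 9 muscle libraries have fibre sums of 183293 or more.

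In muscle, most of the atrophy genes rose in LPS-MIC-1 against both LPS and control, Foxo4 stayed under the fold threshold in both comparisons and Mstn in that with LPS, and none of the 9 tested was called between LPS and control. Expression was fitted with limma on log2(FPKM + 0.1), and a call required a log2 fold change beyond 1 in either direction together with a Benjamini-Hochberg adjusted p under 0.05. Genes were tested where their FPKM averaged over 1. Foxo3 passed this filter only through the LPS-MIC-1 group, where it is high, so its values in that group are given as a description and the counts below leave out such genes. Of the 8 members over 1 FPKM in 2 or more groups, 6 rose and 0 fell in LPS-MIC-1 against LPS, where 8.18% of the 9186 genes of that kind were called higher and 5.57% lower. Against control, 7 rose and 0 fell, beside 7.87% and 6.19% of these genes. In both comparisons all 8 members were higher in every LPS-MIC-1 library than in any library of the other group, as were 31.2% of these genes against LPS and 32.3% against control. The median log2 fold change of the 8 members was 3.48 against LPS and 3.05 against control, beside -0.03 and -0.01 over these genes. With Foxo3 counted the calls would be 7 and 8 of 9, beside 9.67% and 9.33% of all 9475 genes tested called higher and 5.44% and 6.12% lower. Because the members were chosen with earlier results of these data known, these counts are set beside the shares only as a description. The 9 genes other than 8430408G22Rik together took 0.0266% ± 0.000268 of the summed FPKM in control muscle, 0.0249% ± 0.00124 in LPS and 0.449% ± 0.00840 in LPS-MIC-1 (SD, n = 3). In bulk tissue, fewer cells of a type and less RNA per cell cannot be told apart, and the same holds for the reverse.

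**Figure D2:**
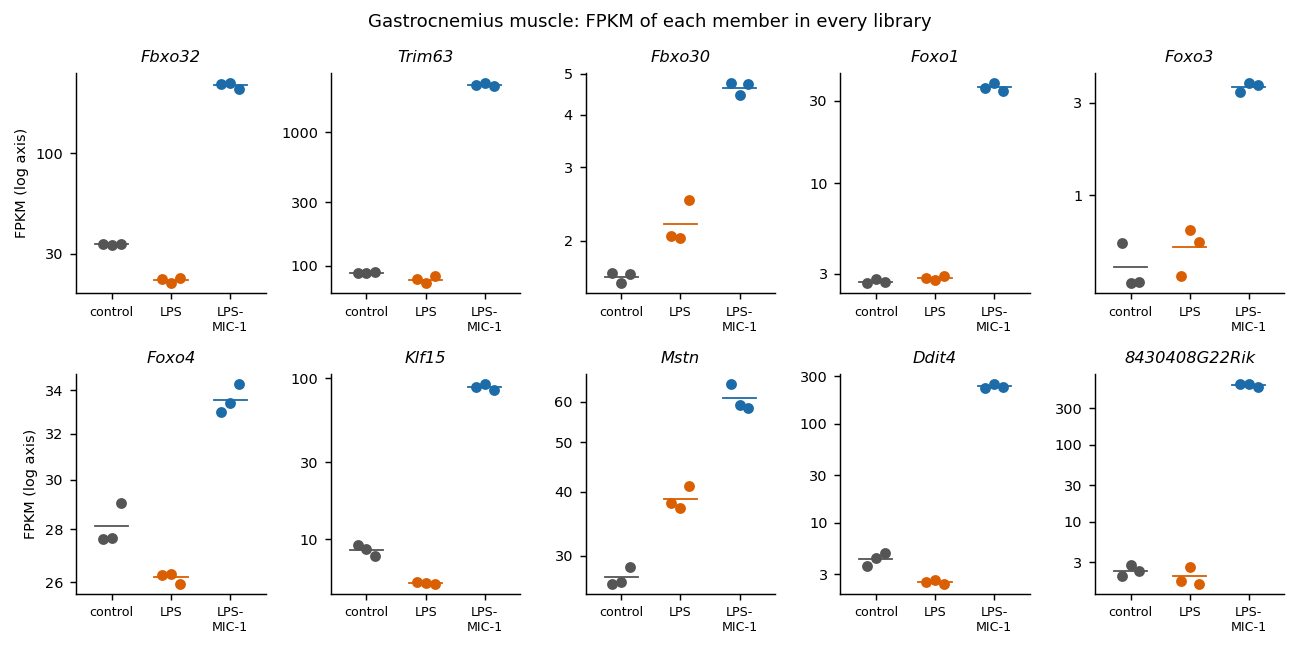
FPKM (log axes of different range) of the 10 genes in the 9 gastrocnemius libraries, with 3 points per group and a bar at the group mean. In each panel the LPS-MIC-1 libraries lie above all control and LPS libraries, as for Trim63 at 2206 FPKM or more against 89.2 at most.

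Among the ligases, Trim63 had the highest level. Trim63 encodes MuRF1, the ligase that tags thick filament proteins of the sarcomere such as myosin heavy chain. It measured 88.3, 88.6 and 89.2 FPKM in the 3 control muscles, 79.4, 73.9 and 83.2 in LPS and 2259.9, 2323 and 2206 in LPS-MIC-1. The LPS-MIC-1 muscles lay far above the others, and the LPS muscles lay below the controls with no overlap. The ratio of means was 28.7 against LPS, a log2 fold change of 4.84 (95% CI 4.74 to 4.94, adjusted p = 7.47e-11, limma), and 25.5 against control, a log2 fold change of 4.67 (adjusted p = 1.00e-10, limma). By FPKM, Trim63 ranked between 659 and 669 among all genes in control muscle and between 30 and 32 in LPS-MIC-1 muscle.

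Fbxo32 encodes atrogin-1, the muscle F-box protein that targets factors of protein synthesis and muscle differentiation. Its FPKM was 33.5, 33.4 and 33.6 in control, 22.2, 21.0 and 22.5 in LPS and 228, 231 and 216 with LPS-MIC-1. The order was thus LPS-MIC-1 over control over LPS, with no overlap between neighbours. It rose 10.3-fold against LPS (log2 fold change 3.35, 95% CI 3.26 to 3.44, adjusted p = 4.21e-10, limma) and 6.71-fold against control (2.74, adjusted p = 6.83e-10, limma). Fbxo32 and Trim63 did not move in proportion, since the Trim63 to Fbxo32 ratio of FPKM was 2.65 ± 0.00786 in control, 3.60 ± 0.0889 in LPS and 10.1 ± 0.170 with LPS-MIC-1 (SD, n = 3).

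Fbxo30 encodes MUSA1, an F-box ligase that BMP signalling restrains in muscle. It was the least abundant ligase of the set and had the smallest change of the 3. It read 1.68, 1.59 and 1.67 FPKM in control, 2.05, 2.03 and 2.50 in LPS and 4.75, 4.45 and 4.72 in LPS-MIC-1. The groups did not overlap, and each step was upward. The log2 fold change was 1.05 against LPS (95% CI 0.81 to 1.29, adjusted p = 4.86e-05, limma), so the interval includes values under the fold threshold, and the call was lost with a pseudocount of 1 (0.82) and with quantile normalization (0.91). Against control it was 1.44 (adjusted p = 6.97e-06, limma).

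The 3 FoxO genes, the transcription factors that drive Fbxo32 and Trim63 when Akt is inactive, behaved differently from each other. Foxo1 measured 2.64, 2.79 and 2.67 FPKM in control, 2.84, 2.77 and 2.93 in LPS and 35.6, 37.8 and 34.1 in LPS-MIC-1. Control and LPS overlapped, and LPS-MIC-1 was 12.6-fold higher than LPS (log2 fold change 3.61, 95% CI 3.47 to 3.74, adjusted p = 1.61e-09, limma) and 13.3-fold higher than control (3.68, adjusted p = 1.36e-09, limma). Foxo3 was low throughout, at 0.571, 0.351 and 0.356 FPKM in control, 0.384, 0.660 and 0.572 in LPS and 3.42, 3.79 and 3.69 in LPS-MIC-1. All LPS-MIC-1 libraries were above the others, and control and LPS overlapped. The log2 fold change was 2.57 against LPS and 2.85 against control, given with no test for the reason above.

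Foxo4 was the most abundant FoxO gene of control muscle and had the smallest difference of the 8 genes when LPS-MIC-1 was compared with LPS. Its FPKM was 27.6, 27.7 and 29.1 in control, 26.3, 26.3 and 26.0 in LPS and 33.0, 33.4 and 34.3 in LPS-MIC-1. The groups did not overlap, but the difference between LPS-MIC-1 and LPS was 0.36 on the log2 scale (95% CI 0.27 to 0.44, adjusted p = 5.39e-05, limma), under the fold threshold, and that against control was 0.25. The makeup of the 3 genes shifted accordingly. Foxo4 made up 90.0% ± 0.512 of their summed FPKM in control, 88.6% ± 0.480 in LPS and 46.0% ± 1.56 with LPS-MIC-1 (SD, n = 3). Foxo1 went from 8.65% ± 0.371 and 9.63% ± 0.326 to 49.0% ± 1.62 in the same order, and Foxo3 from 1.37% ± 0.420 and 1.82% ± 0.470 to 4.98% ± 0.196.

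Klf15 encodes a Krüppel-like factor that glucocorticoids induce and that promotes amino acid breakdown. It measured 9.25, 8.66 and 7.84 FPKM in control, 5.39, 5.34 and 5.29 in LPS and 88.4, 92.9 and 84.8 in LPS-MIC-1. LPS-MIC-1 was 16.6-fold higher than LPS (log2 fold change 4.03, 95% CI 3.88 to 4.18, adjusted p = 1.42e-09, limma) and 10.3-fold higher than control (3.36, adjusted p = 2.93e-09, limma). As with Fbxo32, the LPS muscles were the lowest, and no groups overlapped.

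Ddit4 encodes REDD1, an inhibitor of mTORC1 that rises with glucocorticoids, hypoxia and energy stress. It had the largest change of the 8 genes tested against LPS. Its FPKM was 3.64, 4.39 and 4.88 in control, 2.48, 2.64 and 2.41 in LPS and 231, 254 and 234 with LPS-MIC-1. LPS-MIC-1 was 95.5-fold higher than LPS (log2 fold change 6.52, 95% CI 6.29 to 6.75, adjusted p = 1.22e-09, limma) and 55.6-fold higher than control (5.77, adjusted p = 1.87e-09, limma). Its rank among all genes was between 5366 and 6154 in control and between 293 and 312 in LPS-MIC-1.

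Mstn encodes myostatin. It stood at 26.4, 26.6 and 28.6 FPKM in control, 38.1, 37.1 and 41.0 in LPS and 65.1, 59.1 and 58.4 in LPS-MIC-1. The levels of the 3 groups followed that order without overlap. The log2 difference was 0.65 between LPS-MIC-1 and LPS (95% CI 0.52 to 0.79, adjusted p = 2.82e-05, limma), under the fold threshold. Mstn rose between LPS-MIC-1 and control, by 1.16 on the log2 scale (95% CI 1.02 to 1.29, adjusted p = 8.29e-07, limma).

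8430408G22Rik, now named Depp1, encodes a small protein induced by progesterone and by FoxO factors. It read 1.96, 2.73 and 2.29 FPKM in control, 1.71, 2.58 and 1.57 in LPS and 629, 626 and 574 with LPS-MIC-1, values that chose it for the set. Control and LPS overlapped. The ratio of LPS-MIC-1 to LPS means was 312, the largest among the 10 genes, and its rank went from between 6908 and 7752 in control to between 107 and 114.

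**Figure D3:**
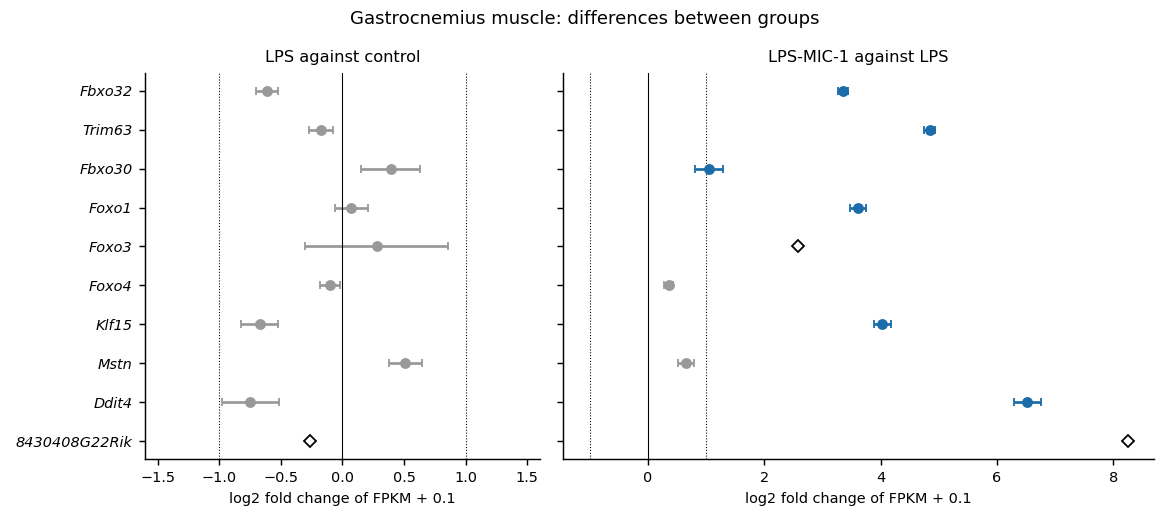
Log2 fold changes of the members in muscle for LPS against control and LPS-MIC-1 against LPS, with 95% confidence intervals from limma. Filled blue points were called, grey points were not, open diamonds are values given with no test (8430408G22Rik, and Foxo3 on the right), and dotted lines mark the fold threshold. All 8 tested members lie above 0 on the right, from 0.36 for Foxo4 to 6.52 for Ddit4, and the 9 tested lie within 1 of 0 on the left.

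LPS against control compared the muscles without MIC-1, as labelled. In this comparison 0 of the 9 members were called in either direction by limma, with 0.654% of all genes called higher and 0.591% lower. At an unadjusted p under 0.05 and any fold, 2 members were higher and 5 were lower, beside 15.4% and 14.2% of all genes. Past the adjusted p at any fold, 4 members were lower and 2 higher, beside 7.48% and 8.25% of all genes. The lower ones were Fbxo32 (log2 difference -0.61, adjusted p = 4.77e-05), Klf15 (-0.67, adjusted p = 0.000355), Ddit4 (-0.75, adjusted p = 0.00186) and Trim63 (-0.17, adjusted p = 0.0300), and the higher ones were Mstn (0.51, adjusted p = 0.000893) and Fbxo30 (0.39, adjusted p = 0.0381). The values for Trim63 and Fbxo30 were near the limit of 0.05, and with other settings their adjusted p ran from 0.0171 to 0.0807 and from 0.0214 to 0.102. Foxo1 (0.07), Foxo3 (0.28) and Foxo4 (-0.10) did not pass. All 9 of the 95% intervals lay within the fold threshold, the widest excursions being -0.98 for Ddit4 and 0.86 for Foxo3.

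Summed marker levels of other cell types also differed between the muscle groups. The neutrophil list (9 genes found) summed to between 1.73 and 2.74 FPKM in control, 1.76 and 2.02 in LPS and 14.3 and 19.9 in LPS-MIC-1, with Elane at 0 in every muscle library. The macrophage list summed to between 25.6 and 29.1 in control, 31.0 and 33.0 in LPS and 50.2 and 218 in LPS-MIC-1. The fibre list was lower in LPS-MIC-1, between 183293 and 197726, than in LPS, between 229345 and 232900, and control, between 242540 and 247565. The endothelial list (7 genes) summed to between 85.2 and 91.0 in control, 54.4 and 56.7 in LPS and 83.3 and 92.5 in LPS-MIC-1, and the adipose list (7 genes) to between 288 and 294, 220 and 244, and 324 and 352. The fibroblast list (6 genes) lay between 117 and 152 over all 9 muscle libraries, and that of intestine and liver epithelium (8 genes) between 1.23 and 1.42 in control, 4.06 and 4.90 in LPS and 4.47 and 5.13 in LPS-MIC-1. Their part in the members' differences was not tested. Without LPS-MIC-1 replicate 3, the library with the high macrophage sum, 6 of the 8 members were called against LPS, with log2 fold changes of 4.86 for Trim63, 3.38 for Fbxo32 and 6.54 for Ddit4. Of all 9475 genes tested, 880 were called higher and 549 lower in that fit.

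Genes linked to the members by pathway were counted from 6 further lists, each by the same threshold, for LPS-MIC-1 against LPS in muscle. Of all 9475 genes tested there, 9.67% were called higher and 5.44% lower, the shares to set beside each list. Of 18 other ubiquitin ligases linked to muscle wasting, 4 rose and 0 fell. Cblb, a ligase that degrades insulin receptor substrates, went from 1.80 ± 0.162 to 12.3 ± 0.792 FPKM (log2 fold change 2.70, adjusted p = 1.14e-07, limma), and Siah1a from 4.15 ± 0.00795 to 10.5 ± 0.331 (1.32, adjusted p = 2.06e-07, limma; SD, n = 3). The median of the list was 0.39, beside -0.01 over all genes tested, and 14 of the 18 did not pass.

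Of 23 other FoxO target genes tested, 13 rose and 0 fell, with a median log2 fold change of 1.30. Pdk4, a kinase that shuts off pyruvate oxidation, had the largest rise, from 25.8 ± 1.12 to 1070.0 ± 22.8 FPKM (5.37, adjusted p = 2.47e-11, limma), followed by the cell cycle inhibitor Cdkn1a, from 6.64 ± 0.614 to 136 ± 0.781 (4.34, adjusted p = 3.36e-09, limma). Of 14 glucocorticoid-responsive genes tested, 12 rose and 1 fell, with a median of 3.05. Mt2, a metallothionein, rose from 35.8 ± 0.475 to 6452 ± 435 FPKM (7.49, adjusted p = 2.47e-11, limma) and Cebpd, a transcription factor of the acute phase, from 4.66 ± 0.654 to 399 ± 22.2 (6.40, adjusted p = 1.02e-09, limma).

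The myostatin and activin list had 4 of 10 tested genes higher and 0 lower, with a median of 0.75. Acvr1b, an activin type I receptor, went from 11.8 ± 0.304 to 51.4 ± 3.13 FPKM (2.11, adjusted p = 1.25e-08, limma). Inhbb, an activin subunit, stood at 0.138 ± 0.0448 FPKM in LPS and 2.80 ± 0.371 with LPS-MIC-1, and passed the filter only through the latter. In the IGF, Akt and mTOR list, 1 of 18 rose and 3 fell, with a median of 0.33. Irs1, which couples the insulin receptor to PI3 kinase, fell from 14.0 ± 0.143 to 3.14 ± 0.0664 FPKM (-2.12, adjusted p = 4.77e-09, limma), and Igfbp3, an IGF binding protein, rose from 3.66 ± 0.318 to 20.3 ± 1.18 (2.44, adjusted p = 2.64e-07, limma). Of 9 genes of amino acid catabolism linked to Klf15, 1 rose and 0 fell. That gene was Prodh, the proline dehydrogenase, from 4.85 ± 0.332 to 17.6 ± 0.529 FPKM (1.84, adjusted p = 9.42e-08, limma). Leaving out the genes over 1 FPKM in a single group changed the counts of called genes to 11 of 13 higher for the glucocorticoid-responsive list and 3 of 9 for the myostatin and activin list, and in no other list.

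Against control, the same lists in LPS-MIC-1 muscle had 5 of 18 ligases, 13 of 23 FoxO targets, 12 of 14 glucocorticoid-responsive genes, 5 of 10 myostatin and activin genes, 4 of 18 IGF, Akt and mTOR genes and 3 of 9 catabolism genes higher, and 3 genes lower, all in the IGF, Akt and mTOR list. Of all genes tested in this comparison, 9.33% were called higher and 6.12% lower. Without the genes over 1 FPKM in a single group, the higher counts were 5 of 16, 13 of 23, 11 of 13, 4 of 9, 3 of 17 and 3 of 9 in the same order, beside 7.87% of all such genes. Ubr2 had the second largest rise of the ligase list, from 13.1 ± 0.0865 in control to 32.3 ± 0.650 FPKM (1.30, adjusted p = 2.13e-08, limma), and Dbt, a subunit of the branched-chain keto acid dehydrogenase, was among the catabolism genes that rose, from 1.38 ± 0.340 to 5.08 ± 0.613 (1.83, adjusted p = 0.00525, limma). For LPS against control, the glucocorticoid-responsive list had 2 higher and 1 lower, the IGF, Akt and mTOR list 2 higher and 1 lower, and the other 4 lists 0 called genes. Of all genes tested, 0.654% were called higher and 0.591% lower. Mt2 rose from 7.96 ± 0.390 to 35.8 ± 0.475 FPKM (2.16, adjusted p = 4.34e-07, limma) and Mt1 from 31.3 ± 3.22 to 86.2 ± 3.13 (1.46, adjusted p = 1.32e-05, limma), while Igfbp3 fell from 9.25 ± 1.14 to 3.66 ± 0.318 (-1.31, adjusted p = 0.000114, limma). Rptor, the scaffold of mTORC1, was called higher at 2.67 ± 1.61 against 0.321 ± 0.556 FPKM (adjusted p = 0.0400, limma), a change with a wide spread.

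The muscle libraries fall into 2 blocks, LPS-MIC-1 and the rest, so high correlations over them were common, and they are given as a description. Over the 9 libraries, the gene most like Fbxo32 on the log2(FPKM + 0.1) scale was Klf15, with Pearson's r of 0.999, followed by Irgm2 and Nfil3. Trim63 was closest to Mafk, Siah1a and Ino80, Foxo1 to Glul, 9530068E07Rik and Tcap, and Ddit4 to Fam32a, H3f3b and Atoh8. For 8430408G22Rik the closest were Gabarapl1, Ifi204 and Wdr92. The closest to Klf15 were Fbxo32, Nfil3 and Errfi1, and 210 tested genes had an r over 0.99 with Trim63, 117 with Fbxo32 and 172 with Ddit4. The lowest numbers of such genes were 23 for Fbxo30 (led by Maff, Fgf1 and Eif4ebp2), 17 for Mstn (Srp72, Stt3b and Rnf115), 16 for Foxo3 (Mocos, AA467197 and Mtr) and 5 for Foxo4 (Sln, Fam168b and Tpm4).

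In the cultured libraries the members had a different profile. Ddit4 and Foxo3 had the highest FPKM of the set in the LPS libraries, Foxo3 in control and Ddit4 in LPS-MIC-1, and the muscle ligases Fbxo32 and Trim63 stayed at or under 1.78 FPKM. The fold threshold was that used for muscle, and the adjusted p had to be under 0.001. Of the 10 members, 6 had a mean over 1 FPKM and were tested among 10877 genes. In LPS against control, 2 of the 6 were called higher and 0 lower, beside 10.9% and 10% of all genes. One of the 6, 8430408G22Rik, passed only through the LPS-MIC-1 libraries and is described without a test in comparisons with them. In LPS against control it was near the floor, at means of 0.0351 and 0.0148 FPKM, and was not called. Of the other 5, LPS-MIC-1 against LPS had 0 higher and 2 lower by limma (0 and 4 at an unadjusted p under 0.05), beside 18.5% and 27.3% of the 9802 genes over 1 FPKM in 2 or more groups. Against control 1 was higher and 1 lower, beside 14.9% and 24.1%. With 8430408G22Rik counted there would be 1 and 2 higher, beside 24.3% and 21.1% of all genes tested called higher and 25.6% and 22.1% lower. The macrophage and myogenic sums given above differ between the groups of the last 2 comparisons, and their part in the results was not tested.

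**Figure D4:**
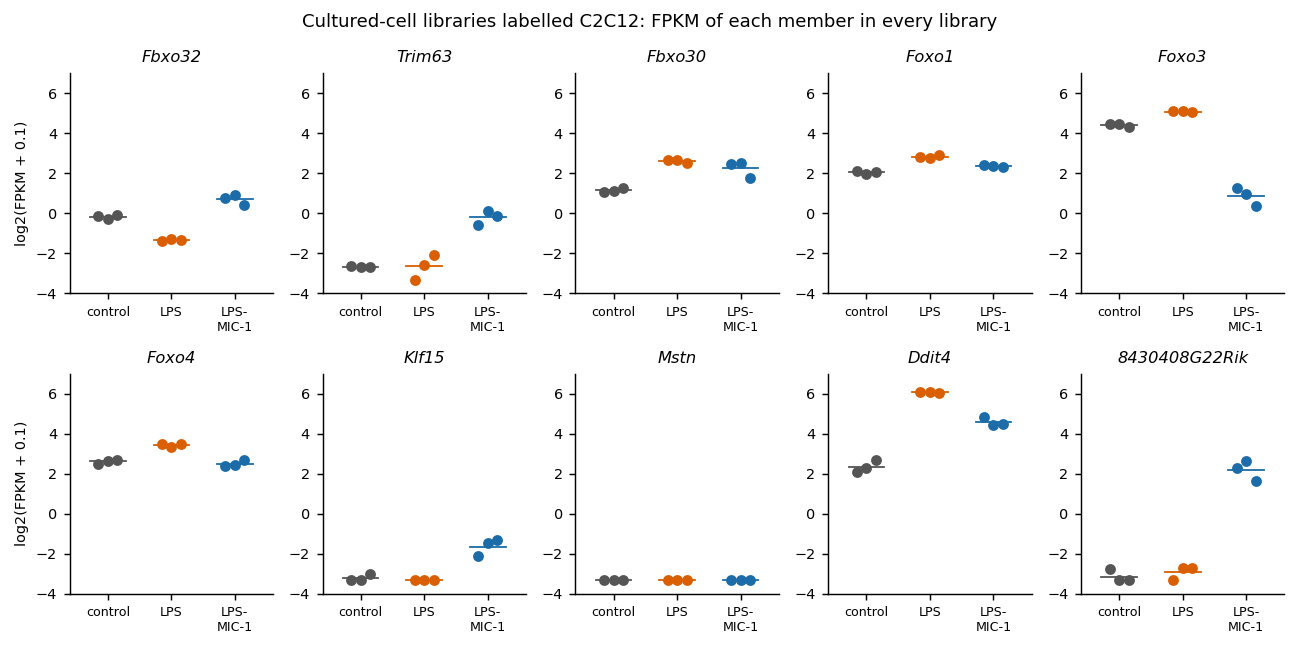
Expression of the 10 genes as log2(FPKM + 0.1) in the 9 cultured libraries labelled C2C12, with 3 points per group and a bar at the group mean on a common axis. Foxo3 is lowest in LPS-MIC-1, Ddit4 is highest in LPS, 8430408G22Rik is near the floor except in LPS-MIC-1, and Mstn is listed at 0 in every library.

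Ddit4 measured 4.14, 4.75 and 6.36 FPKM in the libraries labelled control, 67.0, 68.6 and 65.9 in those labelled LPS and 28.7, 21.3 and 22.1 in those labelled LPS-MIC-1. No groups overlapped, with LPS highest and control lowest. It rose between control and LPS (log2 fold change 3.72, 95% CI 3.34 to 4.10, adjusted p = 6.37e-07, limma), and LPS-MIC-1 was lower than LPS by a called change of -1.49 (adjusted p = 4.39e-05, limma) and higher than control by 2.23 (adjusted p = 3.91e-06, limma).

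Foxo3 was at 21.98, 21.97 and 19.6 FPKM in control, 34.2, 34.0 and 33.2 in LPS and 2.31, 1.84 and 1.19 in LPS-MIC-1. The LPS libraries were highest, but the log2 difference from control, 0.67 (adjusted p = 0.0179, limma), did not pass. Foxo3 fell in LPS-MIC-1, with log2 fold changes of -4.22 against LPS (adjusted p = 2.22e-07, limma) and -3.54 against control (adjusted p = 7.06e-07, limma). It made up 67.7% ± 2.08 of the summed FPKM of the 3 FoxO genes in control, 65.6% ± 1.49 in LPS and 14.3% ± 4.41 with LPS-MIC-1 (SD, n = 3).

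Foxo1 and Foxo4 differed by less than the fold threshold in these comparisons. Foxo1 averaged 4.06 ± 0.197 FPKM in control, 7.04 ± 0.307 in LPS and 5.05 ± 0.161 with LPS-MIC-1, and Foxo4 6.01 ± 0.423, 10.7 ± 0.684 and 5.58 ± 0.645 (SD, n = 3). Both were higher in each LPS library than in each control library, with log2 differences of 0.78 (adjusted p = 5.66e-05, limma) and 0.83 (adjusted p = 0.000208, limma). Between LPS-MIC-1 and LPS they were -0.47 (adjusted p = 0.000625, limma) and -0.94 (adjusted p = 4.86e-05, limma), and Foxo4 was past the fold threshold, at -1.03, without LPS-MIC-1 replicate 3.

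Fbxo30 read 2.01, 2.05 and 2.31 FPKM in control, 6.15, 6.25 and 5.71 in LPS and 5.50, 5.63 and 3.25 in LPS-MIC-1. It rose between control and LPS (log2 fold change 1.47, adjusted p = 0.000322, limma), with no overlap. That call was lost, at adjusted p between 0.00137 and 0.00198, when any 1 of the 6 libraries compared was left out (limma). LPS-MIC-1 replicate 3 was below the other LPS-MIC-1 libraries, and the log2 difference from control, 1.10 (adjusted p = 0.00110, limma), passed the threshold without it (1.35) and with 2 other scalings (1.19 and 1.22).

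The other members were near the floor. Fbxo32 was not tested, with 0.803, 0.715 and 0.858 FPKM in control, 0.289, 0.315 and 0.296 in LPS and 1.61, 1.78 and 1.26 in LPS-MIC-1, an order of LPS-MIC-1, control and LPS with no overlap. Trim63 was listed at 0.0588, 0.0581 and 0.0575 in control, 0, 0.0699 and 0.139 in LPS and 0.573, 0.996 and 0.821 in LPS-MIC-1. Klf15 was at 0 in 5 of the 6 control and LPS libraries, at 0.0223 in control replicate 3 and at 0.127, 0.258 and 0.294 in LPS-MIC-1, and Mstn was listed at 0 in all 9 libraries. The authors' mean normalized count in the 3 cultured tables was between 2.00 and 11.8 for Trim63 and between 0.151 and 4.16 for Klf15, so these values rest on few reads, whereas that of Fbxo32 was between 68.4 and 129.5.

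8430408G22Rik was at 0.0444, 0 and 0 FPKM in control, 0, 0.0528 and 0.0527 in LPS and 4.68, 6.03 and 2.94 in LPS-MIC-1. All LPS-MIC-1 libraries were above the others. Its log2 difference on the scale of log2(FPKM + 0.1), given with no test, was 5.07 against LPS and 5.31 against control. Both depend on the pseudocount because the LPS and control values are near 0. Over the alternatives the lowest and highest values were 2.38 and 7.01 against LPS and 2.41 and 7.96 against control.

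The pathway lists were counted in the cultured libraries by the same rule. Of all genes tested, 10.9% were called higher and 10% lower in LPS against control. In LPS-MIC-1 against LPS the shares were 18.5% and 27.3% of the 9802 genes over 1 FPKM in 2 or more groups. In the cultured LPS libraries against control, 9 of 21 tested FoxO targets rose and 1 fell, led by Gadd45a, a growth arrest gene, from 2.52 ± 0.0687 to 34.2 ± 0.935 FPKM (3.71, adjusted p = 1.17e-08, limma) and the lysosomal protease Ctsl, from 98.8 ± 5.46 to 463 ± 6.15 (2.23, adjusted p = 9.10e-08, limma). In LPS-MIC-1 against LPS, 0 FoxO targets rose and 9 fell, with a median of -0.93 beside -0.21 over the 9802 genes. The largest falls were those of Ccng2, from 45.0 ± 0.0200 to 3.18 ± 1.13 FPKM (-3.84, adjusted p = 4.79e-07, limma), and Mxi1, from 133 ± 1.72 to 15.6 ± 1.86 (-3.09, adjusted p = 1.15e-08, limma). Among the other ligases 3 of 15 rose and 0 fell with LPS, with Mdm2, the ligase of p53, from 25.6 ± 0.414 to 193.6 ± 0.379 FPKM (2.92, adjusted p = 0.000208, limma). In LPS-MIC-1 against LPS, 2 rose and 2 fell of the 11 ligases over 1 FPKM in 2 or more groups. A further 4 were higher but passed the filter only through LPS-MIC-1, among them Nedd4, at 0.114 ± 0.197 FPKM with LPS and 129 ± 14.4 with LPS-MIC-1, and the muscle ligase gene Trim54, at 0.0290 ± 0.0502 and 26.4 ± 6.11.

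The remaining lists in the cultured libraries gave mixed counts. With LPS, the glucocorticoid-responsive list had 5 of 13 higher and 1 lower, with Errfi1 rising from 6.56 ± 0.137 to 42.6 ± 0.563 FPKM (2.68, adjusted p = 6.61e-09, limma). The myostatin and activin list had 3 of 13 higher and 0 lower, the IGF, Akt and mTOR list 2 of 19 higher and 2 lower, and the catabolism list 0 of 8 higher and 1 lower. Deptor, an inhibitor of mTOR, fell from 5.26 ± 0.0464 to 1.20 ± 0.0269 FPKM (-2.04, adjusted p = 3.51e-07, limma), and Sesn2, another inhibitor of the pathway, rose from 12.5 ± 0.434 to 44.8 ± 0.189 (1.83, adjusted p = 2.13e-06, limma). Inhba, an activin subunit, rose from 0.0132 ± 0.0165 to 1.29 ± 0.0586 FPKM (3.63, adjusted p = 1.60e-06, limma) and Smad7, which inhibits the receptors, from 0.733 ± 0.0997 to 3.46 ± 0.179 (2.10, adjusted p = 2.78e-05, limma).

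In LPS-MIC-1 against LPS the higher and lower counts of these lists, over genes above 1 FPKM in 2 or more groups, were 4 and 3 of 12 for glucocorticoid-responsive genes, 3 and 2 of 9 for myostatin and activin, 1 and 7 of 15 for IGF, Akt and mTOR and 1 and 1 of 7 for catabolism. Of all such genes, 18.5% were called higher and 27.3% lower. Angptl4, an inhibitor of lipoprotein lipase, rose from 1.00 ± 0.172 to 52.6 ± 7.16 FPKM (5.58, adjusted p = 1.05e-08, limma). Several genes passed the filter only through LPS-MIC-1 and are given with no test. Igfbp5, an IGF binding protein, had a mean of 0.135 ± 0.215 FPKM with LPS and 153 ± 19.5 with LPS-MIC-1, and Fstl1, a follistatin-like protein, of 0.0516 ± 0.0893 and 53.5 ± 4.57. Hsd11b1, which regenerates active glucocorticoid, was listed at 0 in the 3 LPS libraries and averaged 14.0 ± 1.07 with LPS-MIC-1, and Prodh had means of 0.160 ± 0.133 and 3.12 ± 0.879 FPKM. Between LPS-MIC-1 and control, 14.9% of the genes above 1 FPKM in 2 or more groups were called higher and 24.1% lower. The higher and lower list counts over such genes were 2 and 0 of 11 other ligases, 5 and 7 of 21 FoxO targets, 5 and 0 of 12 glucocorticoid-responsive genes, 4 and 1 of 9 myostatin and activin genes, 0 and 5 of 15 IGF, Akt and mTOR genes and 1 and 2 of 7 catabolism genes. Among the FoxO targets Txnip, an inhibitor of thioredoxin, fell from 198 ± 6.05 to 16.0 ± 3.54 FPKM (-3.65, adjusted p = 5.16e-08, limma). The marker sums that separate these groups were given above, and their part was not tested.

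The authors' result tables gave a second view of the members' abundance, as the mean normalized count over the 6 libraries of each comparison. In 5 of the 6 tables these means ranked genes much like FPKM, with Spearman's rho across genes between 0.838 and 0.853 (genes are not independent replicates). In the table named for control and LPS muscle, rho was 0.319, and the members did not match their FPKM. Trim63 and Mstn had a mean normalized count of 0 there, against a mean FPKM of 83.8 and 33.0 in the libraries so labelled, and Ddit4 had 18946 against 3.41 FPKM. In the table for LPS and LPS-MIC-1 muscle, Trim63 had 27704, Mstn 1751 and Ddit4 2523.

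**Figure D5:**
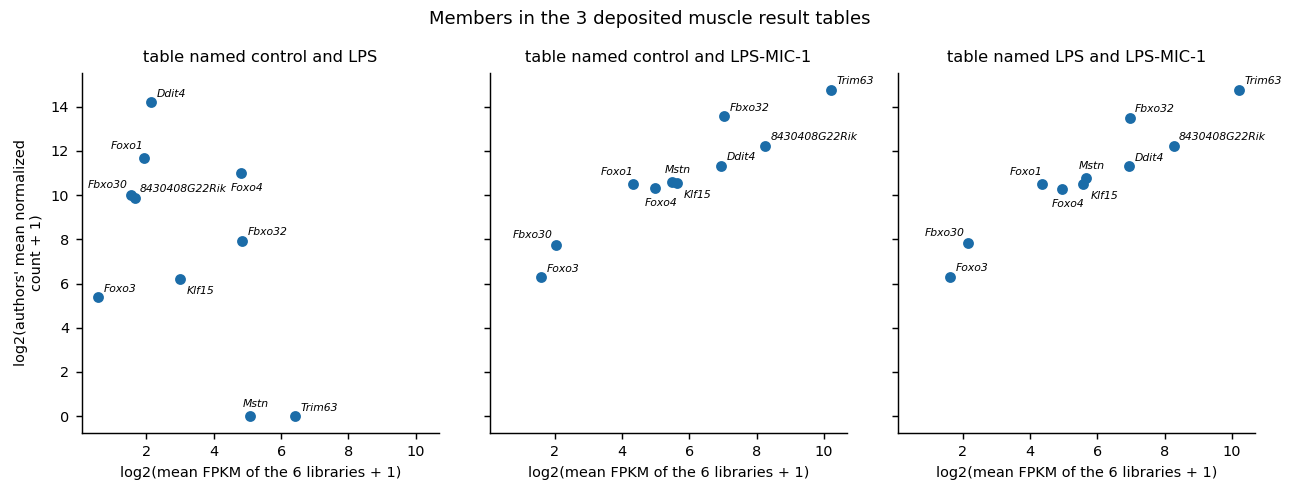
The authors' mean normalized count of each member against its mean FPKM in the same 6 muscle libraries, both as log2(value + 1), for the 3 muscle result tables. In the tables with LPS-MIC-1 the points rise together, while in the table named for control and LPS, Trim63 and Mstn lie at 0 and Ddit4 has the highest count.

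Fibre genes showed the same mismatch. Of 12 fibre markers, 8 were at 0 in the control and LPS table, including Myh4, the gene of the fast type IIb myosin heavy chain, which had 10718 FPKM in the libraries. Among its genes with a mean FPKM over 1, 1087 or 11.7% were at 0, compared with 0 genes in each of the other 5. Every level, fold change and test given here comes from FPKM, and these tables gave only the mean normalized counts.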

How the data were processed

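RNA-seq values from 9 cultured-cell and 9 gastrocnemius libraries were used, grouped by their labels. The authors ran kallisto on the reads, collapsed the estimates to genes and deposited FPKM per library, with mm9 as the build in the submitters' notes. Depth per library is unknown. Beside its library columns, the muscle table held 11 unnamed columns. Per-sample values in 9 of these belong to no stated sample and were left out. The authors also deposited DESeq2 tables with a mean normalized count per gene (counts divided by size factors, a signal here, printed only as the authors' mean), log2 fold changes and p-values, and these last columns were not used.

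Each experiment was fitted apart with limma 3.58.1 in R 4.3.3 on log2(FPKM + 0.1), as group means over 9 libraries with a trended prior. A fold change on this scale understates that of low genes. The test covered genes whose FPKM averaged over 1, with Benjamini-Hochberg adjustment over all of them, genes over 1 FPKM in LPS-MIC-1 alone are described without a test in comparisons with that group, and the thresholds given above are the study's. No source says that the cultured replicates were separate cultures, so their p-values measure only the spread between these samples. Summaries used Python 3.11.15 with pandas 2.3.3. The fits were tested on simulated data.

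The members, lists and markers were chosen with earlier results of these data known. Named genes were the 10 members, the 2 called genes with the largest change per list and comparison, and the 3 genes most correlated with each member over the muscle libraries. Some list genes of that rule are not shown, and Pax7, Myf5, Elane and Myh4 were named after their values were seen. A planned search of member promoters for FoxO and glucocorticoid receptor motifs was not run, because no promoter sequences were used here. Other settings tried were a pseudocount of 1 or 0.01, removing the filter on low FPKM or raising it to 5, scaling by median ratios or quantiles, a prior without trend, fits on 6 libraries, blocking by replicate number and omission of each library.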

Additional observations from a re-analysis of the deposited data

Results flagged for a closer look

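In 8 of 27 member comparisons, every library moved one way in the cultured cells and the opposite way in muscle. Over all genes in both tables the same held for 13.9% of 64128 gene comparisons. All 8 came from the 5 members with a mean over 1 FPKM in both experiments, which have 15 comparisons, and among all genes with such means it held for 6830 of 25266 comparisons. Foxo3, among these 5, passed in muscle only through LPS-MIC-1, and its opposite comparisons all involve that group. The counts are thus only a description. The difference between the experiments was not tested, because their tables were normalized separately, and the cultured control and LPS libraries carry macrophage rather than myogenic markers. For LPS against control, the log2 difference of Ddit4 was 3.72 in the cultured libraries and -0.75 in muscle, and that of Foxo4 was 0.83 and -0.10. Between LPS-MIC-1 and LPS, the opposite pairs were Ddit4 with -1.49 in the cultured libraries and 6.52 in muscle, Foxo3 with -4.22 and 2.57, Foxo1 with -0.47 and 3.61, Foxo4 with -0.94 and 0.36 and Fbxo30 with -0.37 and 1.05. For LPS-MIC-1 against control, Foxo3 had -3.54 in the cultured libraries and 2.85 in muscle.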

How the results depend on the processing

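In muscle, members called higher, Foxo3 included, numbered 7 against LPS and 8 against control whichever library was left out. In those fits between 877 and 925 of the 9475 genes tested were called higher against LPS, and between 864 and 905 against control. Under the other alternatives the members called higher numbered at least 5 and 6. Foxo3 passed the filter only through LPS-MIC-1. Of 852 alternative values of the 48 member log2 fold changes, 835 kept direction and side of the threshold, 9 lost a call, 4 gained one, 2 with no test moved and 2 reversed. Those that reversed were 8430408G22Rik in cultured LPS against control (-0.024) and Foxo4 in cultured LPS-MIC-1 against control (0.090), both under quantile normalization and neither called. In cultured LPS against control, members called higher fell from 2 to 1 with a mean FPKM over 5 and with the replicate block, and were between 1 and 2 with 1 library left out, the loss being Fbxo30 in the last 2 cases, while members called lower went from 0 to 1 without the FPKM filter (Fbxo32, -1.15, adjusted p = 0.000693, limma). Without that filter, where genes above 0 in 3 or more libraries were kept, members called higher in cultured LPS-MIC-1 numbered 4 against LPS and 4 against control. Trim63 and Klf15 are among them, though under 1 FPKM in every cultured library. These counts are thus only a description, with no share of all genes beside them. With a mean FPKM over 5 the numbers were 0 and 1. Over genes above 1 FPKM in 2 or more groups, a choice made after seeing the data, they were 0 and 1 in place of 1 and 2. With a mean FPKM over 5, 1533 genes were called higher in cultured LPS-MIC-1 against control, in place of 2300. In muscle, genes called for LPS against control, 62 higher and 56 lower, became 37 and 34 with a pseudocount of 1, 31 and 26 with a mean FPKM over 5, and 88 lower without the filter. For LPS-MIC-1 against LPS, 916 higher and 515 lower became 452 and 204 with a mean FPKM over 5, with 275 lower at a pseudocount of 1 and 798 without the filter, and against control 884 and 580 became 462 and 215, with 341 and 915 lower. The cause of these shifts was not tested. Quantile normalization moved the median of all genes in muscle by -0.11 for LPS-MIC-1 against LPS and by -0.11 against control. The deviations of same-numbered libraries correlated between -0.0757 and 0.0823 over 18 pairs, which cannot decide whether such libraries were prepared together. The replicate block changed no other member call. Depth limits the cultured values near 0.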
